A study of Mus musculus with 18 samples.

Results

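Start codon ac4C peaks are the listed peaks that the authors assigned to the start codon of an mRNA, the junction between the 5′ untranslated region (5′ UTR) and the coding sequence. N4-acetylcytidine (ac4C) is an acetylated form of cytidine, and acRIP-seq pulls down RNA fragments that carry it with an antibody before sequencing. In the 6 peak lists of the series, the rows with the start codon label were taken, and rows that shared at least 1 bp on a chromosome were merged into regions. This gave 898 start codon regions from 2168 peaks, of 9429 regions and 24703 peaks of all transcript classes. The study sequenced hippocampal RNA of mice aged 3 months, 3 5xFAD and 3 WT samples, each with an ac4C pull-down, an IgG pull-down and an input library. 5xFAD mice carry transgenes with familial Alzheimer disease mutations under the neuronal Thy1 promoter, among them human APP with the Swedish, Florida and London mutations, and the WT mice carry no transgene. The methods name female mice in one sentence and littermates of both sexes in another, so sex is not settled here.

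The enzyme NAT10 writes ac4C on ribosomal RNA, transfer RNA and mRNA. Acetylation in the coding sequence has been linked to mRNA stability and decoding in human cells. At the start codon, a ribosome that scans the 5′ UTR stops where the initiator transfer RNA pairs with the AUG, and the bases around it, the Kozak context, set how well that works. In human cells, ac4C near the AUG has been reported to alter initiation at that site. A peak of about the length of an RNA fragment does not show which cytidine carried the mark.

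The bases around the start codon are shown for mRNAs whose peaks the results below turn on. Each is a window of 30 bases of the transcript strand in build GRCm38.p6 (mm10), from RefSeq's genome and annotation or, where RefSeq did not place the peak, from GENCODE M21. It holds 12 bases before the start codon, the start codon in capitals and 15 bases after it, and lies inside the region. The first 6 belong to regions found in both genotypes, of which Lin7c, Itga6, Mkl2, Dnajb14 and Eif4ebp1 had lower enrichment in 5xFAD samples and Aldoc did not pass the test:

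Lin7c (chr2:109890873-109890902, plus strand): tccgaagagaagATGgcggcgctgggcgaa

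Itga6 (chr2:71787127-71787156, plus strand): ccgcgcgcgcccATGgcggtcgcgggccag

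Mkl2 (chr16:13358627-13358656, plus strand): gaagtcttcaccATGatcgatagctccaag

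Dnajb14 (chr3:137867912-137867941, plus strand): caggcgcgagccATGgagggcaaccgcgac

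Eif4ebp1 (chr8:27260397-27260426, plus strand): cgtgcaggagacATGtcggcgggcagcagc

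Aldoc (chr11:78324390-78324419, plus strand): acaactgtcatcATGccccactcataccca

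The next windows belong to strong regions found in 5xFAD samples and in no WT sample:

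Smtn (chr11:3537356-3537385, minus strand): ggggccagcaagATGgcagacgaggcttta

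Arl13b (chr16:62846726-62846755, minus strand): gagagacctgggATGttcagtctgatggcc

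Cptp (chr4:155867217-155867246, minus strand): ttgtgttggaagATGgatgactcagagaaa

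Dlg2 (chr7:91672634-91672663, plus strand): catcagagcaatATGaatgcatacctcacc

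The last windows belong to strong regions found in WT samples and in no 5xFAD sample:

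Cisd1 (chr10:71344737-71344766, minus strand): gctgcccgcgccATGggcctcagctccaac

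Cib2 (chr9:54560001-54560030, minus strand): atcgcggtcaccATGgggaacaagcagacc

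Mpzl1 (chr1:165634376-165634405, minus strand): ggcgggagcaggATGgcagaggccgtcgga

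Plk5 (chr10:80356551-80356580, plus strand): caacctgcgcagATGgagccccggtcccgg

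Eif3h (chr15:51865440-51865469, minus strand): ctggctggaaacATGgcgtcgcgcaaggaa

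These windows differ widely in base content. The Mkl2, Dlg2 and Cptp windows hold 8, 9 and 2 cytidines, and the Cisd1 and Itga6 windows hold 14 and 13.

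Start codon peaks were fewer and less enriched in 5xFAD samples. The lists held 330, 301 and 316 start codon peaks in 5xFAD replicates 1, 2 and 3, against 373, 426 and 422 in WT replicates 1, 2 and 3. The means were 316 ± 14.5 in 5xFAD and 407 ± 29.5 in WT (SD, n = 3 each), and every 5xFAD sample was below every WT sample. All lists were shorter in 5xFAD, with 3845 ± 98.5 peaks of any class against 4389 ± 212 in WT (SD, n = 3 each). As a share of each list, start codon peaks made up 8.42%, 8.06% and 8.14% in 5xFAD samples and 8.99%, 9.35% and 9.47% in WT samples, so the share was also lower in every 5xFAD sample. A two-sided exact permutation test gave p = 0.1 for both measures, the smallest p that 3 samples against 3 can give. In total, 50 such comparisons of 1 value per sample were made, 36 of them gave that smallest p, and the lowest Benjamini-Hochberg value was 0.139. None of them can pass 0.05 in this design.

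The fold enrichment (FE) of a peak is the authors' ratio of pull-down signal, less IgG signal, to input, and it was not scaled between samples. The median FE of start codon peaks was 24.7, 23.65 and 29.995 in 5xFAD samples, against 34.8, 35.2 and 35.8 in WT samples. The 5xFAD mean was 26.1 ± 3.41 and the WT mean 35.2 ± 0.490 (SD, n = 3 each, exact permutation p = 0.1), a ratio of 0.741. Peaks of the other classes were closer to each other, with median FE of 21.0 ± 1.20 in 5xFAD and 22.6 ± 0.694 in WT (SD, n = 3 each). The share of strong peaks differed too, since 23.9% ± 0.437 of start codon peaks in 5xFAD and 30.4% ± 1.32 in WT had an FE of at least 100 (SD, n = 3 each). For the other peaks the order was the same and the gap smaller, at 19.2% ± 0.857 in 5xFAD and 20.8% ± 0.00478 in WT (SD, n = 3 each).

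**Figure D1:**
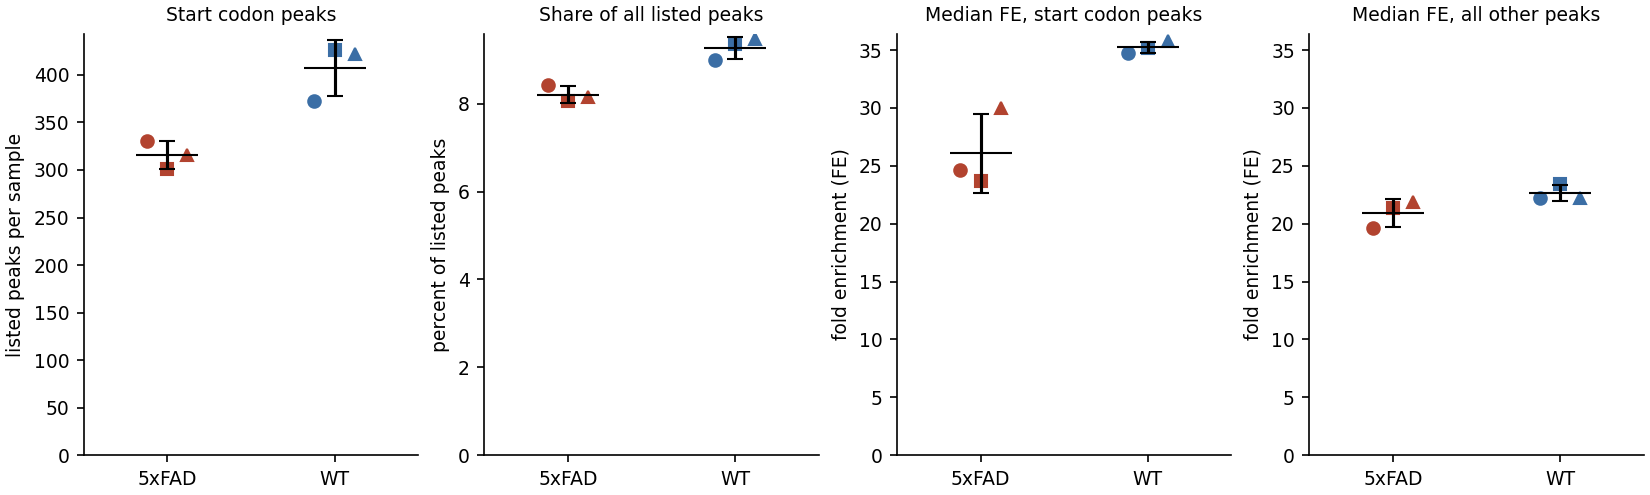
Start codon peaks per sample, their share of all listed peaks in percent, their median FE and the median FE of all other peaks, with 5xFAD left and WT right in each panel. Symbols are the 3 samples of a genotype (circle, square and triangle for replicates 1, 2 and 3), and bars give the mean and SD. The 5xFAD samples lie between 301 and 330 peaks and the WT samples between 373 and 426.

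Within each sample, start codon peaks were more enriched than the rest of the list. The log2 ratio of their median FE to that of the other peaks was 0.33, 0.15 and 0.45 in 5xFAD samples and 0.65, 0.59 and 0.69 in WT samples. It was above 0 in 6 of 6 samples, with a mean of 0.48 (two-sided exact sign-flip permutation p = 0.0312, the smallest p that 6 samples allow). A ratio within a sample does not depend on the scale of its list, and here too the 5xFAD values were all below the WT values (exact permutation p = 0.1). The 5′ UTR peaks had the same order, with median FE of 26.4 ± 3.08 in 5xFAD and 49.5 ± 9.44 in WT, while the coding sequence peaks were level, at 23.7 ± 1.24 in 5xFAD and 23.7 ± 0.409 in WT (SD, n = 3 each).

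The false discovery rate (FDR) that the peak caller gave each peak was also higher in 5xFAD. It stood at 100% for 27.2% ± 3.6 of start codon peaks in 5xFAD and 19.9% ± 1.46 in WT (SD, n = 3 each, exact permutation p = 0.1). For the other classes these shares were 24.4% ± 1.45 in 5xFAD and 21.9% ± 1.04 in WT. The methods state an adjusted p under 0.05 for peaks, yet no listed peak had an FDR under 5%. Start codon peaks had a median length of 203, 195 and 200 bp in 5xFAD samples and 203, 208 and 207 bp in WT samples, ranges that overlap (exact permutation p = 0.2). They were longer than the other peaks, whose median lengths were 151 ± 1.00 bp in 5xFAD and 145 ± 1.53 bp in WT (SD, n = 3 each). Together they covered 59811 ± 4542 bp in 5xFAD and 80496 ± 7124 bp in WT per sample (SD, n = 3 each).

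The start codon label was set against RefSeq and GENCODE gene models. A transcript of the listed gene that holds both ends of the peak in its exons was found for 92.7% of the 2168 peaks, 1602 through the transcript listed with the peak and 407 through another one. Of these, 66.7% held the whole start codon, 10.3% ended before it and 23.05% began after it. For the 407, the transcript with the nearest start codon was kept among those tried. That choice can raise the share that held it and the coverage at the start codon given below. The peaks outside lay at a median distance of 66 bases before and 69 bases after it, so the label covers a neighbourhood and not only peaks over the AUG. Many peaks ended exactly at an exon end, 84.8% of those that held the start codon, 77.2% of those before it and 70.4% of those after it.

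Coverage by placed peaks was highest at the first base of the start codon in all 6 samples. That base lay in 65.8%, 62.3% and 67.4% of placed peaks in 5xFAD samples and in 65.1%, 67.2% and 72.1% in WT samples. The share holding the whole codon was 65.1% ± 2.60 in 5xFAD and 67.8% ± 3.43 in WT, and the genotypes overlapped (SD, n = 3 each, exact permutation p = 0.5). The position of the peaks differed slightly. Their median centre lay 27.0, 20.5 and 18.5 bases downstream of the start codon in 5xFAD samples, against 13, 11 and 11.8 bases in WT samples (exact permutation p = 0.1). Kept to peaks placed by their listed transcript, a choice made after seeing the data, the mean centre lay at 29.2 bases in 5xFAD and 22.8 bases in WT (exact permutation p = 0.2). Peaks entirely after the start codon made up 25.8% ± 3.13 in 5xFAD and 21.0% ± 2.06 in WT (SD, n = 3 each, exact permutation p = 0.1). Peaks that began at the first base of the transcript made up 15.4% ± 1.36 in 5xFAD and 19.0% ± 0.182 in WT.

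**Figure D2:**
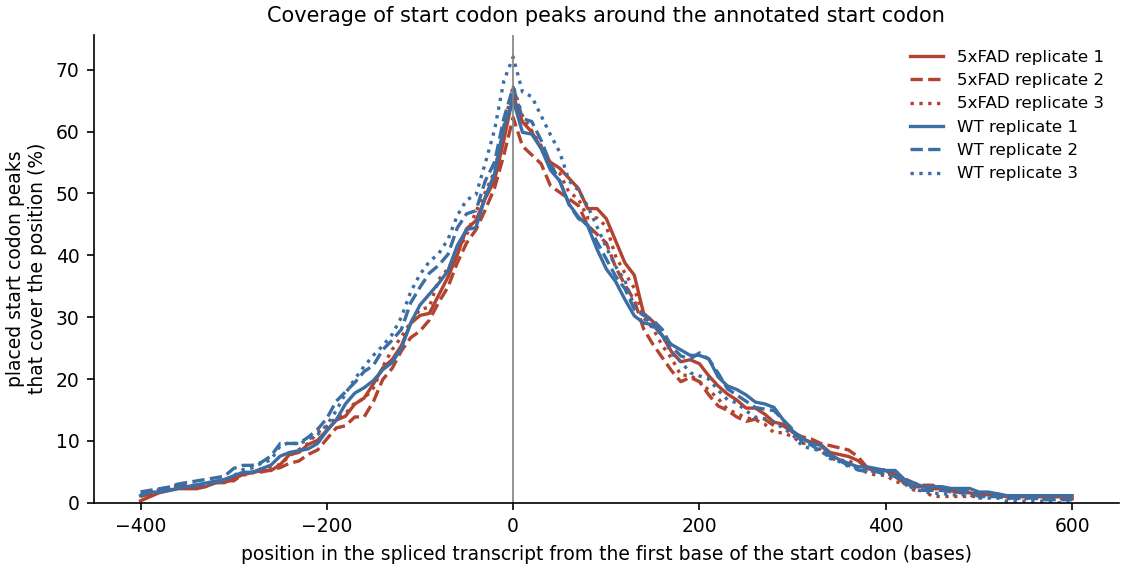
Share of placed start codon peaks that cover each position of the spliced transcript, in percent, against distance from the first base of the start codon in bases, 1 line per sample (5xFAD red, WT blue; solid, dashed and dotted for replicates 1, 2 and 3). All 6 lines peak at position 0, at 62.3% to 72.1%.

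Enrichment was also compared by place. Peaks that held the start codon had a median FE of 23.2 ± 2.65 in 5xFAD and 35.8 ± 1.11 in WT (SD, n = 3 each). Peaks before it had the opposite order, 45.5 ± 7.55 in 5xFAD and 26.8 ± 2.93 in WT (SD, n = 3 each), and neither of these pairs overlapped between genotypes (exact permutation p = 0.1 for each). Peaks after it had 33.4 ± 5.06 in 5xFAD and 40.9 ± 8.28 in WT, which overlapped (SD, n = 3 each, exact permutation p = 0.2). The peaks before the start codon are the smallest of the 3 sets, and the difference between the sets was not itself tested.

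The sequence under the peaks was less rich in G and C in 5xFAD samples. Mean GC content was 59.0%, 58.3% and 57.7% in 5xFAD samples and 60.3%, 61.3% and 61.4% in WT samples, with no overlap (exact permutation p = 0.1). Cytidine alone, the base that is acetylated, made up 28.3% ± 0.324 of peak bases in 5xFAD and 30.1% ± 0.419 in WT (SD, n = 3 each). The GC difference was larger than in the coding sequence peaks and in the 5′ UTR peaks. Coding sequence peaks had 52.4% ± 0.102 in 5xFAD and 52.7% ± 0.155 in WT, and 5′ UTR peaks had 62.6% ± 0.558 in 5xFAD and 62.6% ± 0.541 in WT. All other peaks together had 52.0% ± 0.214 in 5xFAD and 52.4% ± 0.195 in WT (SD, n = 3 each). Stop codon and 3′ UTR peaks were not measured apart. Start codon peaks exceeded the other peaks of their own list by 6.32 ± 0.422 percentage points in 5xFAD and by 8.63 ± 0.391 in WT (SD, n = 3 each, exact permutation p = 0.1). Peaks that held the start codon kept this order, at 59.7% ± 0.953 in 5xFAD and 62.5% ± 0.628 in WT (SD, n = 3 each, exact permutation p = 0.1). Across the start codon peaks of a sample, FE and GC content had a weak Spearman correlation of 0.18 to 0.23. Peaks of 1 sample share its library and are not independent, so this is a description only.

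**Figure D3:**
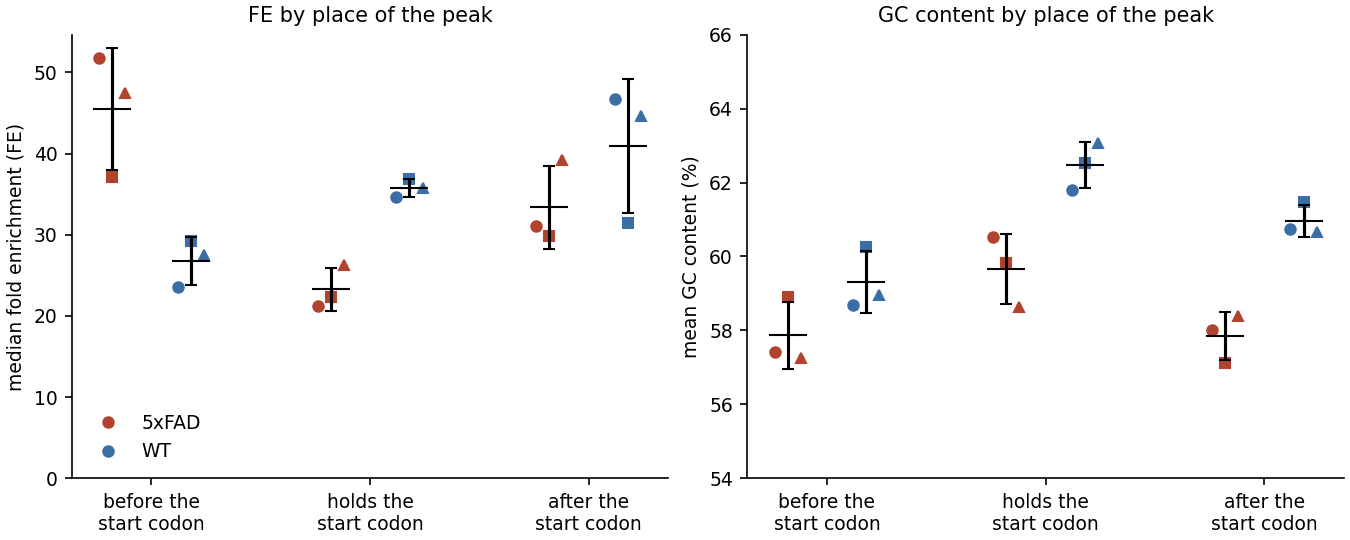
Median FE (left) and mean GC content in percent (right, axis from 54 to 66) of start codon peaks that lie before, hold or lie after the annotated start codon, with 5xFAD (red) left of WT (blue) in each pair. Symbols are samples, bars the mean and SD of 3. FE is higher in 5xFAD before the start codon, at 45.5 against 26.8, and lower in 5xFAD where the peak holds it, at 23.2 against 35.8.

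The Kozak context was read as a purine 3 bases before the A of the start codon and a G directly after the ATG. A purine stood there in 89.4% of the 246 placed start codon regions found in 5xFAD alone and in 84.5% of the 341 found in WT alone. It stood there in 87.2% of the 39 regions found in both, and in 84.5% of 19504 genes in RefSeq. The G after the ATG stood in 51.2% of the regions of 5xFAD alone, 53.7% of those of WT alone, 56.4% of those in both and 49.6% of all genes. These are shares over regions, which are not replicates, and no test was made.

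The regions hardly overlapped between the genotypes. A genotype was taken to have a region when 2 or more of its 3 samples did. Of the 898 regions, 679 on 668 mRNAs were counted for either genotype, 267 for 5xFAD alone, 365 for WT alone and 47 for both. Without 5xFAD replicate 1, 26 regions were found in both. The 47 are 6.92% of the 679, and over regions of all classes that share was 6.18%. Regions of 5xFAD alone made up 39.3% (43% over all classes) and those of WT alone 53.8% (50.9% over all classes). Of the other 219 regions, 208 came from a single sample. A share of 23.2% of start codon regions came from 1 sample, against 14.5% of the regions of other classes.

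Replicates of a genotype shared most of their regions, and the genotypes did not. The Jaccard index of start codon regions, shared regions over all regions of a pair of samples, was 0.573 on average among 5xFAD samples and 0.634 among WT samples. It was 0.065 over the 9 pairs of a 5xFAD and a WT sample. Start codon peaks with exactly the same start and end made up 55.8% of the shorter list among 5xFAD samples, 58.7% among WT samples and 5.97% between genotypes. Both measures were computed for start codon peaks alone, so they do not show whether other classes differ. A peak in all 3 samples and no start codon peak in the other genotype was seen for 163 regions of 5xFAD and 223 regions of WT. These are 24.0% and 32.8% of the 679 regions, and over regions of all classes the shares were 30.5% and 34.9%. In these the FE varied with a median coefficient of variation of 21.9% over the 3 5xFAD samples and 15.3% over the 3 WT samples. The labels give no extraction or sequencing batch, so a batch that coincided with genotype cannot be told apart from it.

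Few of these regions were overlapped by any peak of the other genotype. Of the 267 regions of 5xFAD alone, 260 had no peak of any class overlapping them in any WT sample. Of the 365 regions of WT alone, 339 had none in any 5xFAD sample. By definition such a region can have a start codon peak in at most 1 sample of the other genotype. That was so for 6 regions of 5xFAD alone and 24 of WT alone. Peaks of another class in the other genotype overlapped 1 and 2 of them. The same counts were not made for regions of other classes, so nothing particular to start codon regions is shown. Some of the mRNAs themselves were listed elsewhere. Among the 264 mRNAs with a region of 5xFAD alone, 45.8% had peaks of other classes in at least 2 5xFAD samples and 30.3% in at least 2 WT samples. Among the 360 mRNAs with a region of WT alone, 26.9% had such peaks in 5xFAD and 44.7% in WT. No matching share over all mRNAs was computed, so these shares are a description only. Separate start codon regions of both genotypes on 1 gene were found for 2 genes. Tenm2, which encodes the synaptic adhesion protein teneurin 2, had a region at chr11:36943991-36944243 in 5xFAD, with FE of 5.54 and 7.40 in replicates 1 and 2, and a region at chr11:36677469-36677533 in WT, with FE of 45.8, 52.7 and 44.5. Tsc22d1, which encodes a leucine zipper regulator of transcription, had one at chr14:76415679-76415930 in 5xFAD, with FE of 2.96 and 3.06 in replicates 1 and 2, and one at chr14:76504507-76504816 in WT, with FE of 12.3, 14.5 and 13.7.

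The strongest regions of 5xFAD samples that no WT sample had were on Smtn, 5330417H12Rik, Arl13b and Lta4h. Smtn encodes smoothelin, a cytoskeletal protein of smooth muscle, and its peak at chr11:3537323-3537425 held the start codon, with FE of 924, 962 and 839 in 5xFAD replicates 1, 2 and 3. Arl13b encodes a small GTPase of the primary cilium, and its peak at chr16:62846697-62846954 had FE of 789.88, 951.71 and 818.07 over the start codon. The 3 values of each gene lay close together. 5330417H12Rik had FE of 789.88, 971.69 and 833.35 at chr7:107625002-107625161, upstream of its start codon. Lta4h, which encodes leukotriene A4 hydrolase, had FE of 531, 979 and 848 at chr10:93453623-93453668, wholly inside the coding sequence, and replicate 1 was the lowest. Cptp, for a ceramide-1-phosphate transfer protein, had FE of 477, 592 and 498 over its start codon.

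Klhdc8b, a kelch-domain gene, had FE of 485, 567 and 494 in 5xFAD samples. Atmin, whose product interacts with the DNA damage kinase ATM, had FE of 432.5, 492 and 989 and so varied more. Acrbp, for a sperm acrosome protein, had FE of 686, 839 and 745, but the region is only 12 bp long, and those bases occur 1133 times on the assembled chromosomes. Reads of 150 bp are longer than this region, so that count does not show whether the reads align elsewhere. The assignment to Acrbp was not tested. In all, 39 of the 163 regions in all 3 5xFAD samples and no WT sample had a mean FE of at least 100. This was not counted for regions of other classes.

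The strongest regions of WT samples that no 5xFAD sample had were led by Homer2 and Ptprz1. Homer2 encodes a postsynaptic scaffold that binds metabotropic glutamate receptors, and its peak at chr7:81706759-81706925 ended just after the start codon, with FE of 935, 1016 and 939.9 in WT replicates 1, 2 and 3. Ptprz1, for a receptor-type phosphatase of glial cells, had FE of 863, 904 and 821 at chr6:22875502-22875743 in the 5′ UTR. Cisd1, for an iron-sulfur protein of the outer mitochondrial membrane, had FE of 457, 529 and 478 over its start codon. These 3 regions varied little between the WT samples. Cib2, for a calcium- and integrin-binding protein, had FE of 439, 451 and 426 over its start codon. Mpzl1, for a cell surface glycoprotein related to myelin protein zero, had FE of 415, 460 and 437 there.

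Tfap2b, for a transcription factor of the AP-2 family, had FE of 429, 449 and 395 in WT samples, and no gene model used here placed its peak. Plk5, for a kinase-like protein of the polo family, had FE of 388, 388 and 296 over its start codon. Gm20783 had FE of 654, 674 and 487 in a region of 13 bp, whose bases occur 217 times on the assembled chromosomes. As for Acrbp, that count covers fewer bases than a read and does not show where the reads align. The place of the Gm20783 peak was not tested. Of the 223 regions in all 3 WT samples and no 5xFAD sample, 55 had a mean FE of at least 100, again without a count for other classes. The lists give no value where no peak was called, so no fold change against the other genotype can be given for any of these regions.

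In the 47 regions of both genotypes, enrichment was mostly lower in 5xFAD. The mean FE was lower in 5xFAD in 37 regions and higher in 10, with a median over the 47 of 7.02 in 5xFAD and 174.9 in WT. It was over 10 times higher in 5xFAD in 4 regions (10.4% over the 491 regions of all classes) and over 10 times higher in WT in 25 (40.3% over the 491). Samples did not overlap between genotypes in 26 regions lower in 5xFAD and 4 regions higher in 5xFAD (47% and 21.2% over all 491). limma was fitted on log2(FE + 1) over all 491 regions, samples without a peak entering at FE 0. A change was called where the adjusted p was under 0.05 and levels differed 2 times or more. By this test 24 of the 47 start codon regions fell in 5xFAD and 3 rose, or 51.1% and 6.38%. Over the 491 regions 40.3% fell and 16.1% rose. Without 5xFAD replicate 2, 14 of the 32 start codon regions then tested fell. The median log2 fold change, 5xFAD over WT, was -3.35 for the 47 regions and -1.47 for the 444 of other classes.

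A general shift went with this. The median log2(FE + 1) over the 491 regions was 1.99 lower on average in 5xFAD samples than in WT samples, at 3.19 against 5.19. With each sample centred on its median, 20 start codon regions fell and 5 rose, and the calls over all regions split into 146 lower and 142 higher. The median log2 fold change of the 47 regions was then -1.36, against 0.52 for the other classes. The listed FDR moved with the calls. In the 24 regions that fell, it was 100% for 55 of 60 5xFAD peaks and for 1 of 72 WT peaks, and in the 3 that rose it was 0 of 9 5xFAD peaks and 7 of 7 WT peaks. The part of these weakly ranked peaks in the result was not tested.

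**Figure D4:**
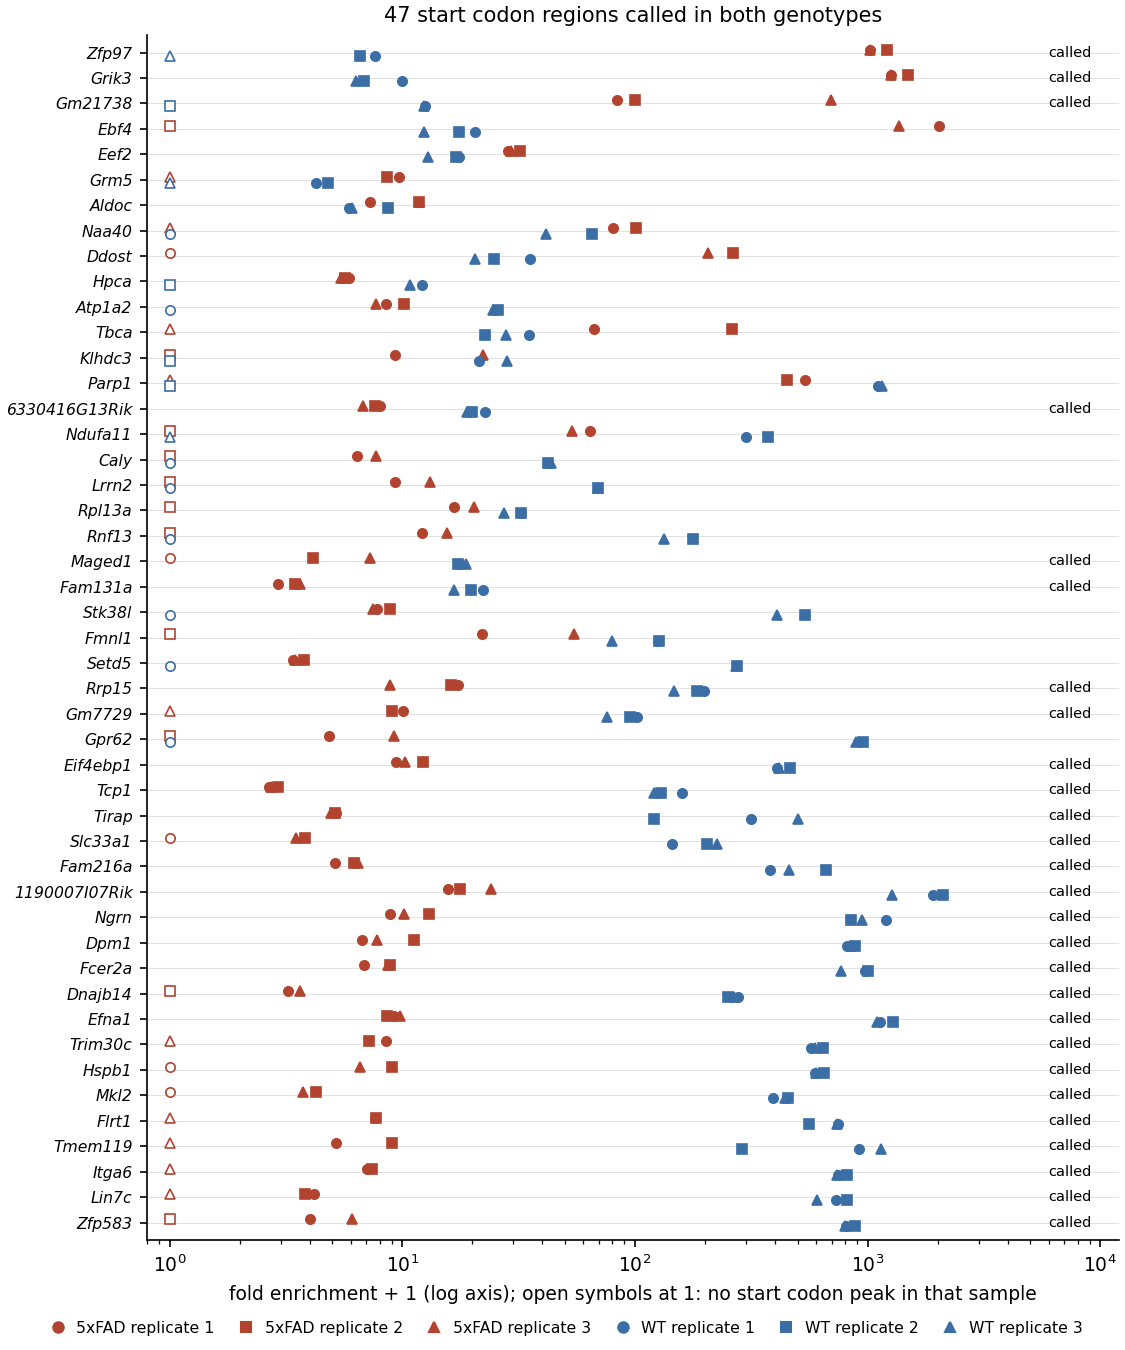
FE plus 1 on a log axis in each sample for the 47 start codon regions called in both genotypes, ordered by log2 fold change with the highest in 5xFAD at the top (5xFAD red and WT blue; circle, square and triangle for replicates 1, 2 and 3; open symbols at 1 mark samples with no start codon peak). Regions past the limma thresholds are marked called, 3 higher and 24 lower in 5xFAD, and for most regions the 5xFAD symbols lie left of the WT symbols.

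By log2 fold change, the largest falls among regions whose samples did not overlap were on genes of several functions. The 8 regions of this ranking each lacked a peak in 1 5xFAD sample, so their order depends on the FE of 0 entered there. Among regions with a peak in all 6 samples, Efna1, named after its values were seen, fell most. Its FE was 8.16, 7.58 and 8.8 in 5xFAD samples against 1130, 1285 and 1093 in WT samples (log2 fold change -6.99, SE 0.18, adjusted p = 5.71e-06, limma). Lin7c, which encodes a scaffold of synapses and cell junctions, had FE of 3.15 and 2.80 in 5xFAD replicates 1 and 2 and no peak in replicate 3, against 733, 812 and 604 in WT samples. Its log2 fold change was -8.15 (SE 0.62, adjusted p = 0.000221, limma). Zfp583, a zinc finger gene, had FE of 3.01 and 5.09 in 5xFAD replicates 1 and 3 and no peak in replicate 2, against 804, 879 and 794 in WT samples (log2 fold change -8.15, SE 0.72, adjusted p = 0.000378, limma). In both, every WT value was over 100 times any 5xFAD value. Itga6, for a laminin-binding integrin subunit, had FE of 6.07 and 6.43 in 5xFAD replicates 1 and 2 and no peak in replicate 3, against 742, 816 and 741 in WT samples (log2 fold change -7.68, SE 0.87, adjusted p = 0.000851, limma). Flrt1, for a leucine-rich adhesion protein, had FE of 6.63 and 6.67 in 5xFAD replicates 1 and 2 and no peak in replicate 3, against 746, 557 and 734 in WT samples (log2 fold change -7.44, adjusted p = 0.00109, limma).

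Tmem119, a microglial membrane protein gene, had FE of 4.18 and 8.04 in 5xFAD replicates 1 and 2 and no peak in replicate 3, against 920, 287 and 1139 in WT samples (log2 fold change -7.54, SE 1.03, adjusted p = 0.00171, limma). Its peak lay after the start codon, and WT replicate 2 was well below the other WT samples. Mkl2, for a coactivator of serum response factor, had FE of 3.25 and 2.75 in 5xFAD replicates 2 and 3 and no peak in replicate 1, against 391, 455 and 441 in WT samples (log2 fold change -7.41, adjusted p = 0.000303, limma). Hspb1, for a small heat shock protein, had FE of 8.04 and 5.56 in 5xFAD replicates 2 and 3 and no peak in replicate 1, against 593, 645 and 600.3 in WT samples (log2 fold change -7.30, adjusted p = 0.00118, limma). The middle bases of this region occur at 2 places in the genome, so reads may come from another copy. Trim30c, of the tripartite motif family, had FE of 7.46 and 6.20 in 5xFAD replicates 1 and 2 and no peak in replicate 3, against 570, 640.4 and 589.9 in WT samples (log2 fold change -7.25, adjusted p = 0.00119, limma).

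The regions that rose in 5xFAD were on Zfp97, Grik3 and Gm21738. Grik3 encodes the GluK3 subunit of kainate-type glutamate receptors, and its peak at chr4:125490700-125490786 lay in the 5′ UTR, with FE of 1263, 1488 and 1263 in 5xFAD samples against 8.95, 5.86 and 5.33 in WT samples. Its log2 fold change was 7.46 (SE 0.25, adjusted p = 7.82e-06, limma), with a peak in all 6 samples. Zfp97, a zinc finger gene, had FE of 1018, 1207 and 1027 in 5xFAD samples, against 6.65 and 5.60 in WT replicates 1 and 2 and no peak in WT replicate 3 (log2 fold change 8.19, SE 0.86, adjusted p = 0.000679, limma). The middle bases of its region occur at 2 places in the genome. Gm21738, a predicted gene, had FE of 82.8, 99.2 and 694 in 5xFAD samples, against 11.5 and 11.4 in WT replicates 1 and 3 and no peak in WT replicate 2 (log2 fold change 5.07, SE 1.398, adjusted p = 0.0268, limma), and its 5xFAD replicate 3 stood far above the others. The Gm21738 call was lost without 5xFAD replicate 3 (log2 fold change 4.09, adjusted p = 0.0603, limma), without 5xFAD replicate 2 (adjusted p = 0.0511, limma) and with a pseudocount of 0.1 (adjusted p = 0.0755, limma).

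A peak in all 6 samples was present in 15 regions, and the least changed of these were on Aldoc, Eef2 and 6330416G13Rik, though all 3 depended on the scaling. Aldoc encodes aldolase C, a glycolytic enzyme of astrocytes, and had FE of 6.24, 10.8 and 10.8 in 5xFAD samples and 4.92, 7.65 and 5.10 in WT samples. The groups overlapped, and the log2 fold change was 0.57 (95% interval -0.22 to 1.35, adjusted p = 0.186, limma). Eef2, for translation elongation factor 2, had FE of 27.5, 30.9 and 28.4 in 5xFAD samples and 16.5, 16.0 and 11.9 in WT samples. These did not overlap, and the log2 fold change of 0.93 (adjusted p = 0.0118, limma) was under the fold threshold. Without WT replicate 1 it was 1.01 and passed (adjusted p = 0.014, limma). With each sample centred on its median both passed as higher in 5xFAD, Aldoc at a log2 fold change of 2.56 (adjusted p = 0.00308, limma) and Eef2 at 2.93 (adjusted p = 0.00248, limma). 6330416G13Rik had FE of 7, 6.66 and 5.79 in 5xFAD samples and 21.8, 18.8 and 18.01 in WT samples, and fell by 1.46 on the log2 scale (adjusted p = 0.00124, limma). With that centring its log2 fold change was 0.54 and no longer passed, so its direction depends on the scaling, and with a pseudocount of 10 it was -0.84 and under the fold threshold.

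Translation initiation genes had start codon regions on 3 mRNAs, 0 in 5xFAD alone, 1 in both and 2 in WT alone. Over all 668 mRNAs with such regions, 264 were in 5xFAD alone, 47 in both and 360 in WT alone. An mRNA with several regions can count more than once. No share of a gene list was tested. Eif4ebp1, which encodes 4E-BP1, the repressor that binds the cap-binding factor eIF4E, had FE of 8.40, 11.3 and 9.26 in 5xFAD samples against 408, 464 and 414 in WT samples, over its start codon, and fell by 5.34 on the log2 scale (SE 0.19, adjusted p = 9.86e-06, limma). Of 18 initiation factor genes with called peaks of any class, 3 had a start codon region, which is 16.7% beside 14.9% of all 4493 mRNAs with called peaks. The other 2, Eif3h and Eif3d, encode subunits of the initiation factor eIF3 and had no start codon peak in 5xFAD. Their FE in WT samples was 335, 235 and 260 for Eif3h and 42.7, 35.2 and 24.2 for Eif3d.

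Among 41 chaperone genes with called peaks, 6 had a start codon region, or 14.6% (14.9% over all mRNAs). Of the 6, 1 was in 5xFAD alone, 2 in WT alone and 3 in both. Besides Hspb1, the co-chaperone gene Dnajb14 had FE of 2.22 and 2.62 in 5xFAD replicates 1 and 3 and no peak in replicate 2, against 277, 249 and 265 in WT samples (log2 fold change -6.87, adjusted p = 0.000268, limma). Tcp1, for a subunit of the chaperonin TRiC, had FE of 1.66, 1.91 and 1.73 in 5xFAD samples against 158, 128 and 119 in WT samples, and fell by 5.61 on the log2 scale (adjusted p = 8.24e-06, limma). Bag4, for a co-chaperone of Hsp70, had no start codon peak in 5xFAD and FE of 69.1, 71.0 and 69.5 in WT samples. Dnajb12, a co-chaperone gene named after its values were seen, had FE of 44.6 and 51.0 in 5xFAD replicates 1 and 2 and none in WT.

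Ribosomal protein genes divided between the genotypes. Of 44 with called peaks, 10 had a start codon region, or 22.7% (14.9% over all mRNAs). Of the 10, 5 were in 5xFAD alone, 4 in WT alone and 1 in both. Rpl8, of the large cytosolic subunit, had FE of 44.5, 66.8 and 115 in 5xFAD samples and no start codon peak in WT. Mrpl10 and Mrpl35, of the mitochondrial ribosome, had no start codon peak in 5xFAD. In WT samples the FE was 68.0, 72.1 and 51.7 for Mrpl10 and 56.8, 20.6 and 93.3 for Mrpl35. Rpl13a, found in both, had FE of 15.7 and 19.4 in 5xFAD replicates 1 and 3 and no peak in replicate 2, against 31.3, 31.4 and 26.3 in WT samples, and did not pass the test (adjusted p = 0.223, limma).

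Oxidative phosphorylation genes had start codon regions on 10 of 35 mRNAs with called peaks, or 28.6% (14.9% over all mRNAs). Of the 10, 5 were in 5xFAD alone, 4 in WT alone and 1 in both. Of the complex I subunit genes, Ndufa12 and Ndufb7 had no start codon peak in 5xFAD, and in WT samples FE of 107, 143 and 109 for Ndufa12 and 69.3, 62.0 and 63.2 for Ndufb7. Ndufb4 had FE of 53.5, 86.9 and 45.8 in 5xFAD samples and none in WT, and the middle bases of its region occur at 3 places in the genome. Ndufa11 had FE of 63.2 and 52.8 in 5xFAD replicates 1 and 3 against 300 and 370.3 in WT replicates 1 and 2, and with no peak in the third sample of each it did not pass (adjusted p = 0.681, limma).

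Postsynaptic scaffolds and glutamate receptors had the highest share of the lists, 9 of 31 mRNAs with called peaks or 29.0% (14.9% over all mRNAs). Of the 9, 3 were in 5xFAD alone, 3 in WT alone and 3 in both, and the ranking was not tested. Beside Grik3, Lin7c and Homer2, Dlg2, which encodes the postsynaptic scaffold PSD-93, had FE of 302, 196 and 209 in 5xFAD samples over its start codon and no start codon peak in WT. Gria1, for the GluA1 subunit of AMPA receptors, had FE of 14.03, 12.7 and 16.0 in 5xFAD samples and none in WT, while Gria3, for GluA3, had none in 5xFAD and a pair of weak regions in WT samples, at 3.98, 4.41 and 2.84 and at 3.96, 3.25 and 2.39. Grm5, for the metabotropic receptor mGluR5, was found in both, with FE of 8.67 and 7.56 in 5xFAD replicates 1 and 2 and 3.25 and 3.77 in WT replicates 1 and 2, and did not pass (adjusted p = 0.657, limma). Gria1, Gria3 and Grm5 were named after their values were seen.

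Synaptic vesicle and SNARE genes had start codon regions on 8 of 44 mRNAs (18.2%, beside 14.9% of all mRNAs). Of the 8, 4 were found for each genotype alone and none in both. Nsf, for the ATPase that takes SNARE complexes apart, had FE of 15.9, 22.0 and 40.6 in a region of 17 bp in 5xFAD samples, and Sncb, for β-synuclein, had 12.6, 14.9 and 19.3 in 5xFAD samples. Neither had a start codon peak in WT. Syngr1, for a vesicle membrane protein, had no start codon peak in 5xFAD and FE of 71.6 and 49.9 in WT replicates 2 and 3. Napb, for an adaptor of Nsf, had none in 5xFAD and 19.3 and 23.9 in WT replicates 1 and 3. Ion channel subunits had 7 of 57 (12.3%, beside the same 14.9%). Kcna1, for a voltage-gated potassium channel, had FE of 187, 144 and 139 in 5xFAD samples in its 5′ UTR and none in WT. Kcnj3, for an inwardly rectifying potassium channel, had no start codon peak in 5xFAD and FE of 154, 132 and 149 in WT samples. Cacna2d1, for a calcium channel subunit, had none in 5xFAD and 54.7, 56.8 and 61.8 in WT samples. Cacna1e, for a calcium channel of R type, had FE of 103 and 63.0 in WT replicates 2 and 3.

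Genes of Alzheimer disease risk and amyloid processing had start codon regions on 6 of 29 mRNAs (20.7%, beside 14.9% of all mRNAs). Of the 6, 2 were in 5xFAD alone and 4 in WT alone. Psenen, for a subunit of γ-secretase, had no start codon peak in 5xFAD and FE of 47.3, 48.3 and 60.7 in WT samples, and the middle bases of its region occur at 3 places in the genome. Ece1, for an endothelin-converting protease, had none in 5xFAD and FE of 17.6 and 63.2 in WT replicates 2 and 3. Aplp2, for an APP-like protein, had FE of 20.7, 22.3 and 24.0 in 5xFAD samples and Apoe had 2.93, 5.92 and 5.24 in 5xFAD samples, with none in WT for either. No start codon peak was listed in any sample for App or Thy1, the genes behind a transgene and its promoter, nor for Nat10, Grin1, Map2 or Dnajc6. Of the ac4C writer and its adaptor, 1 mRNA had called peaks and 0 had a start codon region.

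The broader families were near the 14.9% of all mRNAs. Start codon regions were found on 19 of 125 ubiquitin and proteasome genes (15.2%), 11 of 92 zinc finger genes (11.96%), 14 of 80 solute carriers (17.5%), 15 of 96 small GTPase genes (15.6%), 11 of 82 histone and chromatin genes (13.4%) and 12 of 91 protein kinase genes (13.2%). The strongest of the ubiquitin genes were in WT alone, with Fbxo31 at 685 and 734 in replicates 1 and 2 and Asb8 at 344, 368 and 331, both for substrate receptors of ubiquitin ligases. Ube2j1, for a ubiquitin-conjugating enzyme of the endoplasmic reticulum, had 215, 227 and 202 in WT samples, while Trim68 had 271 and 291 in 5xFAD replicates 1 and 3. Of the zinc finger genes beside Zfp97 and Zfp583, Zfp667 had 31.0, 36.2 and 36.8 and Zfp445 had 34.8, 32.3 and 25.9 in WT samples alone.

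Among the solute carriers, Slc33a1, which encodes the acetyl-CoA transporter of the endoplasmic reticulum, had FE of 2.81 and 2.48 in 5xFAD replicates 2 and 3 and no peak in replicate 1, against 144, 203 and 223 in WT samples, and fell by 6.31 on the log2 scale (adjusted p = 0.000490, limma). Slc41a2, for a magnesium transporter, had FE of 3.76 in 5xFAD replicate 2 alone, against 263, 359 and 360.4 in WT samples. Slc38a7, for an amino acid transporter, had FE of 5.09 in 5xFAD replicate 3 alone, against 385 and 382 in WT replicates 1 and 3. Slc35b4, for a nucleotide sugar transporter, had no start codon peak in 5xFAD and 147, 138 and 103 in WT samples. These 4 had the highest FE of the 14, of which 5 were found in 5xFAD alone, 8 in WT alone and 1 in both. Of those in 5xFAD alone, named after their values were seen, Slc38a3 had FE of 51.8, 100.5 and 86 and Slc24a2 had 25.2, 23.2 and 31.01 in 5xFAD samples.

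Among small GTPase genes beside Arl13b, Rab4b, for a regulator of endosome recycling, had FE of 247, 257 and 203 in 5xFAD samples and none in WT. Rab8b, for a GTPase of vesicle traffic, had 4.57 in 5xFAD replicate 1 against 391 and 674 in WT replicates 2 and 3. Rasl10a had 293 in 5xFAD replicate 1 alone, against 124, 179 and 118 in WT samples. Of the chromatin genes, H2afv, for a histone H2A variant, had 283, 281 and 233 in WT samples, while Hdac5, for a histone deacetylase, had 370.1 and 362 in 5xFAD replicates 1 and 2 and Hist1h1d, for a linker histone, had 128 and 139 in 5xFAD replicates 1 and 3. Setd5 had 2.40, 2.77 and 2.44 in 5xFAD samples against 273 and 270.1 in WT replicates 2 and 3, and without a peak in WT replicate 1 it did not pass (adjusted p = 0.275, limma). Of the kinases, Sik2 had 5.83 in 5xFAD replicate 1 against 578 and 572 in WT replicates 1 and 3. Stk38l had 6.77, 7.81 and 6.48 in 5xFAD samples against 538 and 406 in WT replicates 2 and 3 (adjusted p = 0.391, limma), in a region of 32 bp whose bases occur at 2 places in the genome. Without WT replicate 1, the sample with no peak in either, both Setd5 (log2 fold change -6.27, adjusted p = 3.95e-05, limma) and Stk38l (log2 fold change -5.87, adjusted p = 5.52e-05, limma) passed as lower in 5xFAD. That fit leaves out the sample that went against the fall. A reverse case, named after its values were seen, was Ebf4. It had FE of 2029 and 1369 in 5xFAD replicates 1 and 3 and no peak in replicate 2. WT samples had 19.4, 16.55 and 11.4, and Ebf4 did not pass (adjusted p = 0.448, limma). Prkag2, for a subunit of the energy sensor AMPK, had 168 and 177 in 5xFAD replicates 1 and 3, and Camk1, a calcium- and calmodulin-dependent kinase gene, had 88.3, 67.2 and 64.4 in WT samples.

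Of 40 marker genes of hippocampal cell types, 22 had called peaks of any class and 6 had a start codon region. These were Neurod6 and Camk2a of excitatory neurons, Mbp and Mobp of oligodendrocytes, Tmem119 of microglia and Cldn5 of endothelium. None was a marker of interneurons, astrocytes or choroid plexus. Over all mRNAs with called peaks, 14.9% had a start codon region. Among the 6, the region of Camk2a was found in 5xFAD alone, that of Mbp in WT alone and that of Tmem119 in both. FE is relative to input, and the lists hold no measure of mRNA level. In this bulk tissue fewer cells of a type and less RNA per cell cannot be told apart.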

How the data were processed

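Fragmented hippocampal RNA of 3 5xFAD and 3 WT samples was sequenced as input and after pull-down with anti-ac4C antibody and with IgG. The authors trimmed reads with cutadapt 1.9.3, aligned them with HISAT2 2.04 to mm10, called peaks with MACS in each sample against its input on exons of protein-coding genes, and removed peaks that overlapped IgG peaks. The deposited lists give each peak a fold enrichment, a ratio computed by the authors from pull-down, IgG and input signals, with an FDR in percent and a score from the authors' peak caller. The score was not used. The lists hold no reads, so the depth is unknown and gives no counting interval, and the 12 input and IgG libraries were not analysed on their own.

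Peaks of the 6 lists sharing at least 1 bp were merged into regions. The FE of a sample in a region was the sum over its peaks there, 0 where it had none, and regions of different transcript classes were kept apart. limma 3.58.1 was run in R 4.3.3 over all 491 regions found in both genotypes, with Benjamini-Hochberg adjustment and a pseudocount of 1, after tests on simulated data. A fold change on the log2(FE + 1) scale understates the change of low values and, against samples without a peak, depends on the pseudocount. Values per sample were compared by exact permutation in SciPy 1.17.1. Peaks were placed on RefSeq transcripts of GRCm38.p6 and otherwise on GENCODE models. The methods call the samples of a genotype independent, and p-values measure the spread between them.

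Members, gene lists and tests were chosen with earlier results of these data known. The regions named were the 8 largest called changes in each direction without overlap (3 rose), the 8 strongest regions in all samples of 1 genotype and none of the other, the 3 least changed with a peak in all 6 samples, up to 4 of each gene list by FE, genes with separate regions, and preset genes, of which 1 is not reported here. The alternatives were other pseudocounts, FE, FDR, length and overlap limits, median centring, a replicate block, other summaries of a region, and leaving out each sample.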

Additional observations from a re-analysis of the deposited data

How the results depend on the processing

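The differences in number, share, FE, length, place and base content of start codon peaks kept their direction when any 1 sample was left out. The mean log2 ratio of start codon to other peaks was then 0.43 to 0.54, with p = 0.0625, the smallest that an exact sign-flip permutation over 5 samples can give. The count of 47 regions in both genotypes was 14 with peaks under 100% FDR, 20 where starts and ends had to be identical, 15 where all 3 samples needed a peak (173 in 5xFAD alone), and 26 to 40 without 1 sample. Kept to peaks that hold the start codon, a choice made after seeing the data, the regions numbered 156 in 5xFAD alone, 229 in WT alone and 29 in both, of which 1 rose and 14 fell. Of the 47 tested regions, 3 rose and 24 fell. These were 5 and 20 with median centring, 1 and 12 with a peak in all 6 samples, and 169 and 258 where 679 regions of either genotype were fitted together. In that last fit, 267 regions of 5xFAD alone and 365 of WT alone were set mostly against FE 0. Calls on them restate the absence of peaks and are not measured changes. With FE of at least 5, 14 fell, and without 1 sample 14 to 29 fell. With median centring the log2 fold change of 6330416G13Rik was 0.54. Of the named regions, 5 calls were gained and 4 lost with their direction kept over all alternatives. Besides these, 1 call, that of 6330416G13Rik with median centring, was lost with its direction reversed. The cause of these shifts was not tested.

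With the replicate number as a block, 3 regions rose and 23 fell. The numbers do not pair the samples, since deviations of same-numbered samples correlated at -0.01, -0.13 and -0.07. No peak had an FDR under 5%, although the methods state an adjusted p under 0.05, so that limit gave no value. The absence of a peak is not a measured 0, and without read counts the limit of detection is unknown.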
